A study of Mus musculus with 20 samples.

Results

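The genes described here are the Wnt ligands, their receptors and the proteins that modulate them, as measured in whole left kidneys of male mice. They were taken from the gene table by name: every symbol that starts with Wnt, Fzd, Sfrp or Dkk followed by a digit, together with 18 genes named one by one (Lrp5, Lrp6, Ror1, Ror2, Lgr4, Lgr5, Porcn, Wls, Rnf43, Znrf3, Nkd1, Notum, Axin1, Axin2, Ctnnb1, Lef1, Tcf7 and Tcf7l2). Of the 13842 genes in the table, 40 answered to that rule. They comprised 10 Wnt ligands, 8 Frizzled receptors, 4 secreted Frizzled-related proteins, 2 Dickkopf proteins, 5 co-receptors, 2 proteins of Wnt secretion, 6 feedback and negative regulators and 3 genes of beta-catenin and the TCF/LEF factors. The reference annotation holds 55 protein-coding genes with such names. The other 15, among them Wnt1, Wnt3, Wnt3a, Wnt6, Dkk1, Lgr5 and Lef1, were not analysed here at the level of genes. Every gene in the table averaged at least 0.5 FPKM in one group or more (FPKM, a count of fragments scaled to transcript length and to the mapped fragments of the library). Of the 40 members, 32 reached that level in sham and in UUO groups, while 8 (Axin2, Fzd3, Sfrp4, Sfrp5, Wnt10a, Wnt11, Wnt2 and Wnt7a) reached it in UUO groups alone, so that their presence in the table already favoured a higher level after UUO.

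The study removed the histone H3 lysine 27 demethylase KDM6A from kidney tubule cells and obstructed the left ureter. There were 20 mice, 5 in each of 4 groups: KDM6ATubKO mice with unilateral ureteral obstruction (UUO), KDM6ATubKO mice with sham surgery, KDM6ACtrl mice with UUO and KDM6ACtrl mice with sham surgery. KDM6ATubKO mice were male Kdm6afl/Y Pax8Cre+ animals, in which Cre is driven by Pax8 in the tubule epithelium along the nephron and, outside the kidney, in the thyroid. KDM6ACtrl mice were male Pax8Cre+ animals, so every mouse carried the Cre and only the knockouts carried the floxed allele. Kidneys were taken a week after surgery, and the age of the animals is not given in the labels. A mouse is named here by a number from 1 to 5 within its group, and these numbers link no mice across groups. Each mouse identifier opens with a number that no other group shares, so whatever that number marks cannot be told apart from the group. The identifiers also fall into 2 coarser number series, one of which holds 3 mice of KDM6ATubKO UUO, 1 of KDM6ATubKO sham, 3 of KDM6ACtrl UUO and 3 of KDM6ACtrl sham. What the series mark is not given, and a fit with the series as a covariate was 1 of the alternatives.

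Within a group, log2(FPKM + 1) of all genes correlated between kidneys at 0.957 to 0.973 in KDM6ATubKO UUO, 0.981 to 0.988 in KDM6ATubKO sham, 0.960 to 0.977 in KDM6ACtrl UUO and 0.975 to 0.986 in KDM6ACtrl sham. Kdm6a itself lay at 2.03 to 4.21 FPKM in KDM6ATubKO UUO and at 2.28 to 3.67 FPKM in KDM6ACtrl UUO kidneys. In sham kidneys it lay at 0.862 to 1.61 FPKM in KDM6ATubKO and at 1.76 to 2.33 FPKM in KDM6ACtrl mice. This value covers the whole gene and every cell type, so it does not check the excision in tubule cells. Proximal tubule markers summed to 588 to 1423 FPKM in KDM6ATubKO UUO against 2867 to 3402 FPKM in KDM6ATubKO sham, and to 749 to 1416 FPKM in KDM6ACtrl UUO against 2564 to 3239 FPKM in KDM6ACtrl sham kidneys. Fibroblast markers summed to 322 to 530 FPKM against 28.4 to 38.5 FPKM, and to 306 to 403 FPKM against 16.8 to 51.4 FPKM, in the same order of groups. Fewer cells of a type and less RNA per cell cannot be told apart in whole-kidney RNA.

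Wnt proteins are secreted glycolipoproteins that Porcn acylates and Wls carries to the cell surface. They bind Frizzled receptors together with Lrp5 or Lrp6, which stops the destruction complex around Axin from marking beta-catenin for degradation. Beta-catenin then acts with TCF/LEF factors on target genes, while Ror receptors take Wnt5a-type ligands into beta-catenin-independent signalling. Secreted inhibitors (Sfrp, Dkk, Notum) act outside the cell, and Axin2, Nkd1, Rnf43 and Znrf3 feed back on the pathway from within. In the kidney, Wnt9b and Wnt4 drive nephron formation, and Wnt genes are known to be re-expressed in injured and fibrotic kidneys.

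The level of the members spanned over 2 orders of magnitude on the FPKM scale, which is per length and can be compared between genes. Ctnnb1, which encodes beta-catenin, was the most abundant in every group, with 71.7 ± 28 FPKM in KDM6ATubKO UUO, 45.8 ± 7.0 FPKM in KDM6ATubKO sham, 85.9 ± 5.3 FPKM in KDM6ACtrl UUO and 44.0 ± 11 FPKM in KDM6ACtrl sham kidneys (mean ± SD, n = 5 each). In KDM6ACtrl sham kidneys it was followed by Lgr4 (31.4 ± 6.3 FPKM), Sfrp1 (21.6 ± 6.2 FPKM), Wls (17.6 ± 1.3 FPKM), Fzd4 (16.3 ± 2.4 FPKM), Lrp6 (14.6 ± 1.4 FPKM) and Fzd1 (13.2 ± 2.5 FPKM), where neighbours in this order lay within about 1 SD of each other apart from Lgr4 and Sfrp1. No Wnt ligand averaged more than 2.44 FPKM in sham kidneys of either genotype. Wnt7a, at 0.0160 ± 0.023 FPKM in KDM6ATubKO sham and 0.0436 ± 0.097 FPKM in KDM6ACtrl sham kidneys, was the lowest member there. In KDM6ATubKO UUO kidneys Dkk2 (30.2 ± 3.8 FPKM), Sfrp1 (27.4 ± 2.3 FPKM), Dkk3 (22.9 ± 6.2 FPKM) and Lgr4 (19.8 ± 1.9 FPKM) came after Ctnnb1, and Wnt4 (7.73 ± 2.1 FPKM) was the highest ligand. On GRCm38 the genes whose values are given by kidney lie at chr4:137277489-137299726 (Wnt4), chr1:74791516-74804179 (Wnt10a), chr14:28504750-28527448 (Wnt5a), chr6:119432531-119544347 (Wnt5b), chr3:132085292-132180304 (Dkk2) and chr7:112116017-112159057 (Dkk3). The others lie at chr2:109917647-110014257 (Lgr4), chr6:134446476-134566965 (Lrp6), chr8:88521354-88594884 (Nkd1), chr11:120653788-120661175 (Notum), chr17:26138688-26195811 (Axin1) and chr11:52252371-52283014 (Tcf7).

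The first comparison asked how obstruction changed these genes in each genotype, UUO against sham. In KDM6ATubKO kidneys 21 of the 40 members were higher after UUO and 2 were lower, and in KDM6ACtrl kidneys 23 were higher and 3 were lower (limma on log2(FPKM + 1), called at a p under 0.05 after Benjamini-Hochberg adjustment across the 13842 genes of the table). Of all genes, 57.9% were called higher and 16.7% lower in KDM6ATubKO, and 56.7% higher and 15.1% lower in KDM6ACtrl mice, so the count of members lay near the background in both. Their median log2 fold change was 0.41 in KDM6ATubKO and 0.48 in KDM6ACtrl mice, against 0.39 and 0.35 over all genes. The groups of kidneys did not overlap for 21 members in KDM6ATubKO and for 21 in KDM6ACtrl mice, where 62.7% and 56.2% of all genes did not overlap. The members called higher in both genotypes numbered 20, of which 7 (Axin2, Fzd3, Sfrp4, Sfrp5, Wnt10a, Wnt2 and Wnt7a) reached the level of the table in UUO groups alone, which leaves 13. Among the 32 members that also reached it in sham groups 14 were called higher in KDM6ATubKO and 16 in KDM6ACtrl mice, beside 53.8% and 52.1% of all 12223 such genes. The scaling of the values bears on these counts. Rescaling to the upper quartile moved the median of all genes by -0.23 in both genotypes and left 19 higher and 7 lower in KDM6ATubKO and 21 higher and 6 lower in KDM6ACtrl mice, beside 43.3% higher and 26.5% lower and 40.6% higher and 25.4% lower of all genes. Quantile normalization moved the median by -0.43 and -0.40 and gave 11 higher and 13 lower in KDM6ATubKO and 12 higher and 14 lower in KDM6ACtrl mice, beside 31.7% higher and 34.9% lower and 28.8% higher and 35% lower of all genes. Under all 3 scalings, 9 members (Wnt4, Wnt7a, Wnt10a, Fzd2, Dkk2, Dkk3, Nkd1, Axin2 and Tcf7) were called higher in both genotypes and 1, Notum, was called lower in both. Without Wnt7a, Wnt10a and Axin2, which reached the level of the table in UUO groups alone, the 9 are 6.

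**Figure D1:**
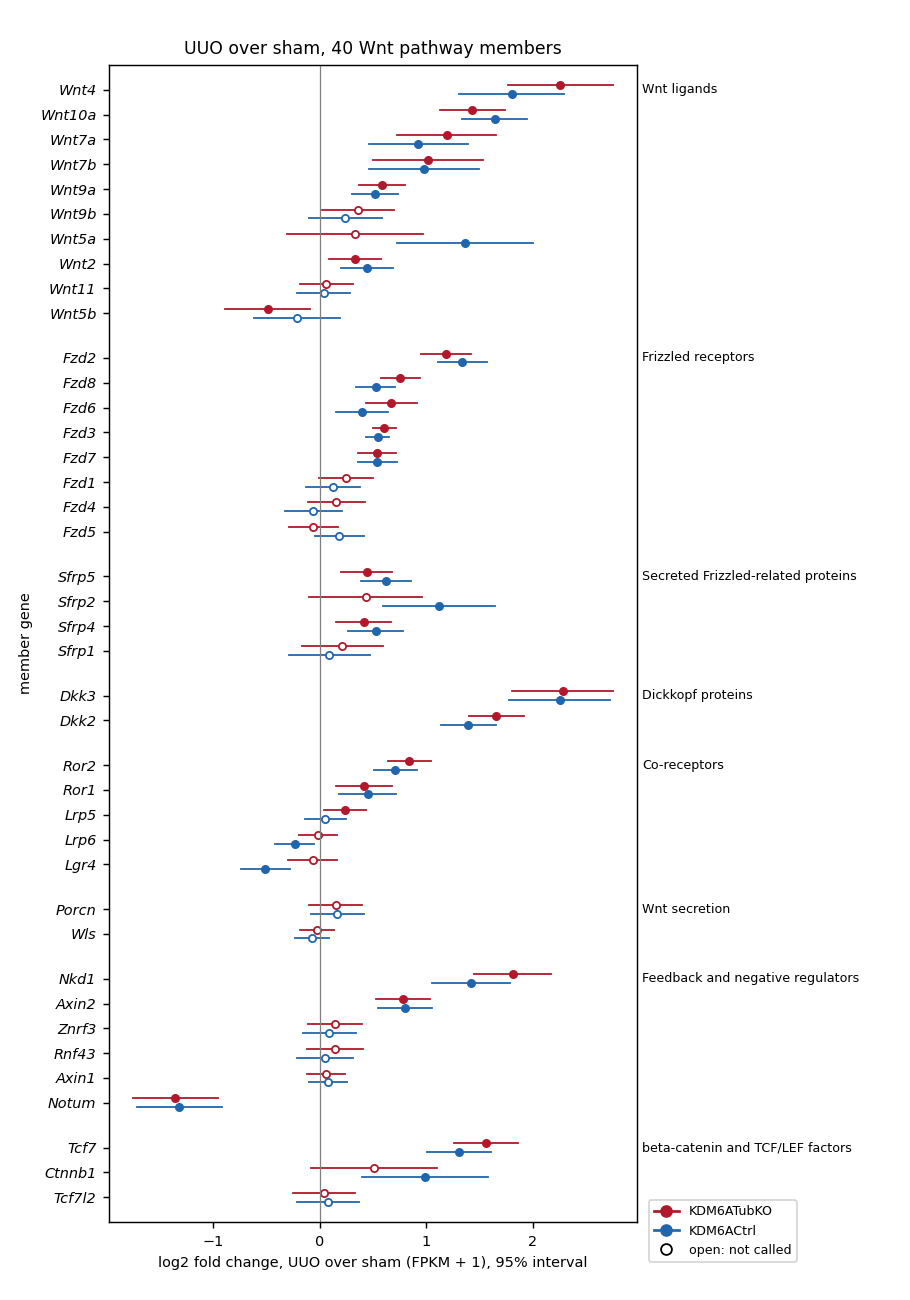
Log2 fold change of UUO over sham on the FPKM + 1 scale for each of the 40 members, with 95% intervals, in KDM6ATubKO (red) and KDM6ACtrl mice (blue), ordered within each role. Filled points passed an adjusted p under 0.05. Dkk3 and Wnt4 lie farthest to the right in both genotypes and Notum farthest to the left, while Wnt5a passed in KDM6ACtrl mice alone.

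Among the 10 Wnt ligands, 6 were higher and 1 was lower after UUO in KDM6ATubKO mice (median 0.47), and 7 were higher and none was lower in KDM6ACtrl mice (median 0.72). Of all genes, 57.9% and 56.7% were called higher. Quantile normalization left 3 higher and 2 lower in KDM6ATubKO and 4 higher and 2 lower in KDM6ACtrl mice, and among the ligands called it turned Wnt2 in KDM6ATubKO (-0.10) and Wnt9a in KDM6ACtrl mice (-0.037) to the other direction. Wnt4, which induces the renal vesicle during development, had 8.34, 4.47, 7.09, 9.09 and 9.65 FPKM in the 5 KDM6ATubKO UUO kidneys, against 1.46, 0.751, 0.420, 0.845 and 0.558 FPKM in the 5 KDM6ATubKO sham kidneys. KDM6ACtrl mice had 4.44, 7.44, 6.51, 7.39 and 9.32 FPKM after UUO, against 1.21, 0.428, 0.812, 1.71 and 2.74 FPKM after sham surgery. The lowest UUO kidney was above the highest sham kidney in both genotypes, with log2 fold changes of 2.26 ± 0.24 (SE, adjusted p = 6.7e-08) in KDM6ATubKO and 1.80 ± 0.24 (adjusted p = 1.6e-06) in KDM6ACtrl mice.

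Wnt10a, a ligand best known from tooth, skin and hair development, had 1.96, 2.17, 1.79, 2.41 and 2.93 FPKM in KDM6ATubKO UUO kidneys, against 0.235, 0.148, 0.125, 0.167 and 0.308 FPKM in KDM6ATubKO sham kidneys. In KDM6ACtrl mice the values were 4.19, 3.19, 1.56, 2.60 and 3.29 FPKM after UUO, against 0.193, 0.217, 0.265, 0.512 and 0.0366 FPKM after sham surgery. The UUO and sham kidneys stood well apart in each genotype, and the log2 fold changes were 1.43 ± 0.15 (adjusted p = 4.3e-08) in KDM6ATubKO and 1.64 ± 0.15 (adjusted p = 9.5e-09) in KDM6ACtrl mice. Like Wnt7a and Wnt2, Wnt10a is in the table through its UUO groups alone, so a higher level after UUO was favoured by the filter. Wnt7a ranged over 0.347 to 2.67 FPKM in KDM6ATubKO UUO kidneys, against 0 to 0.0475 FPKM in sham kidneys, and over 0.363 to 2.09 FPKM in KDM6ACtrl UUO, against 0 to 0.218 FPKM in sham kidneys. Wnt7b, known for its part in the renal medulla, averaged 4.27 ± 1.6 FPKM in KDM6ATubKO UUO against 1.53 ± 0.49 FPKM in sham kidneys, and 4.94 ± 1.1 FPKM in KDM6ACtrl UUO against 2.17 ± 1.2 FPKM in sham kidneys. Wnt2 and Wnt9a were also called higher in both genotypes, each at a group mean of 0.442 to 1.18 FPKM after UUO. Quantile normalization ended the calls of both genes in each genotype. With urothelium markers as a covariate, Wnt2 lost its call in both genotypes and Wnt9a lost its call in KDM6ACtrl mice. The Wnt2 call in KDM6ATubKO mice was also lost without UUO mouse 4. Wnt9b, the ureteric bud ligand of nephron induction, and Wnt11 passed in neither genotype, with log2 fold changes of 0.36 and 0.06 in KDM6ATubKO and 0.24 and 0.04 in KDM6ACtrl mice.

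Wnt5a, the main ligand of the Ror receptors, had 3.002, 0.988, 4.17, 4.34 and 0.547 FPKM in KDM6ATubKO UUO kidneys, against 1.75, 1.21, 1.59, 2.36 and 1.03 FPKM in KDM6ATubKO sham kidneys. Kidneys of KDM6ACtrl mice had 3.80, 9.04, 5.30, 5.51 and 5.76 FPKM after UUO, against 2.63, 1.20, 2.15, 0.756 and 1.67 FPKM after sham surgery. In KDM6ATubKO mice 3 UUO kidneys lay above every sham kidney and 2 (mice 2 and 5) lay below every one, whereas the groups did not overlap in KDM6ACtrl mice. The log2 fold change was 0.33 ± 0.30 (adjusted p = 0.33) in KDM6ATubKO and 1.37 ± 0.30 (adjusted p = 0.00054) in KDM6ACtrl mice, and the difference between them was -1.03 with a 95% interval of -1.93 to -0.13 and an adjusted p of 0.25. Urothelium markers varied widely among the same kidneys and summed to 73.8, 174, 75.2, 69.7 and 137 FPKM in KDM6ATubKO UUO and to 99.1, 991, 223, 470 and 280 FPKM in KDM6ACtrl UUO kidneys. The 2 KDM6ATubKO UUO kidneys with the least Wnt5a had the highest urothelium sums of their group, while the KDM6ACtrl UUO kidney with the most Wnt5a (mouse 2) had the highest of its group. The same 2 KDM6ATubKO UUO kidneys had the lowest fibroblast marker sums of their group (322 and 395 FPKM, others 463 to 530 FPKM). In KDM6ACtrl UUO the kidney with the least Wnt5a (mouse 1) had the lowest fibroblast sum (306 FPKM), and that with the most had the next lowest (337 FPKM). With the urothelium score as a covariate the genotype difference of Wnt5a in UUO kidneys (given with the genotypes) was -1.06, as without it, and did not pass (adjusted p = 0.24), in a fit that called 0.0723% of all genes higher and 0.108% lower in that comparison. The part of urothelium in the result was not tested beyond that fit, and the part of fibroblasts was not tested. Of the 9 urothelium markers, 5 were lower in KDM6ATubKO than in KDM6ACtrl UUO kidneys and none was higher.

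**Figure D2:**
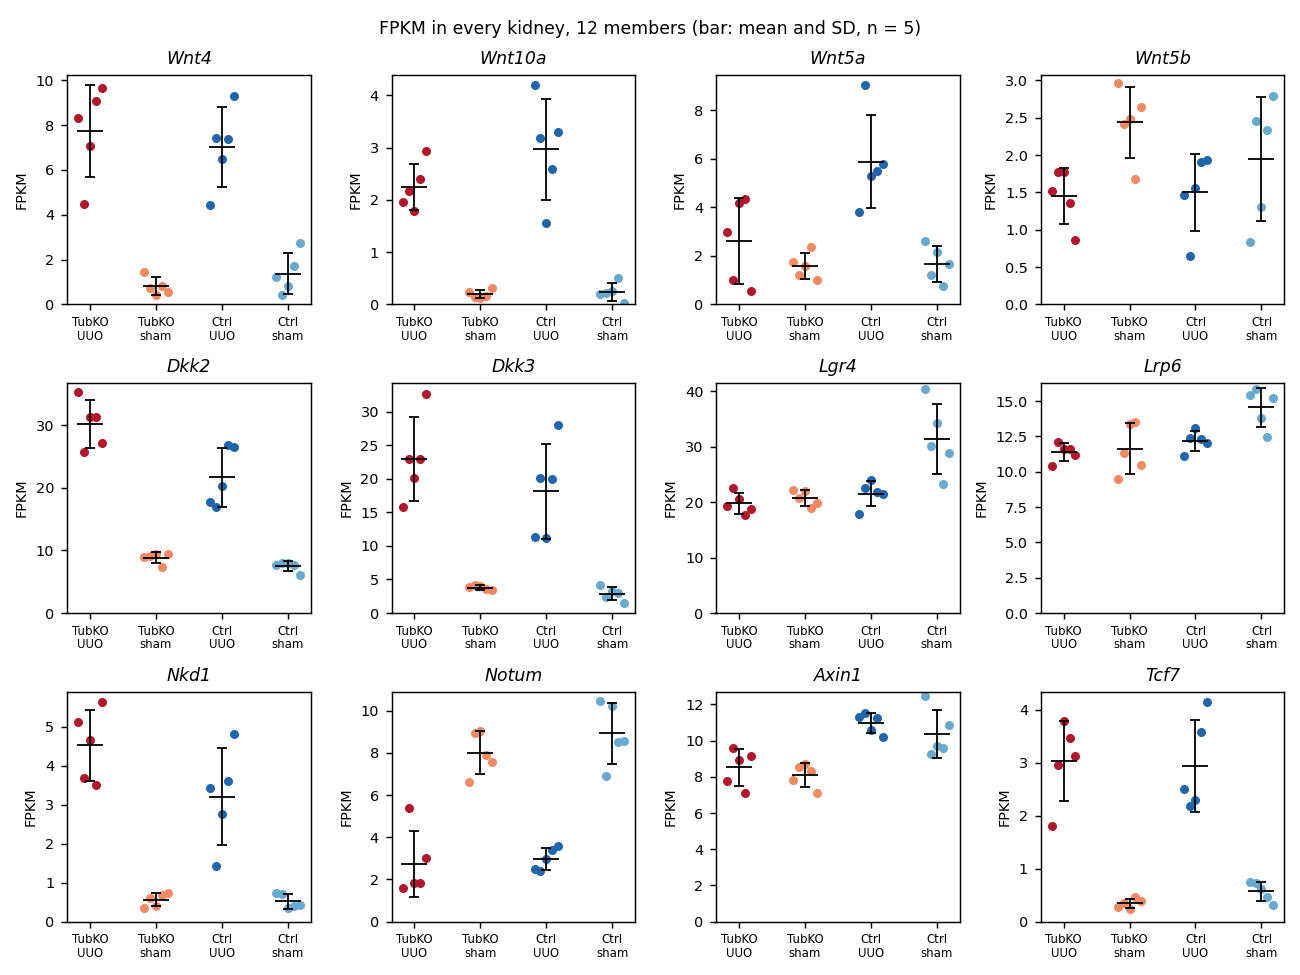
FPKM of 12 members in every kidney, a point per mouse, with the mean and SD of each group of 5 in black. UUO and sham kidneys do not overlap for Wnt4, Wnt10a, Dkk2, Dkk3, Nkd1, Notum and Tcf7 in either genotype, and the KDM6ATubKO sham kidneys lie below the KDM6ACtrl sham kidneys for Lgr4 and Axin1.

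Wnt5b, a close relative of Wnt5a, was the ligand that went the other way. It had 1.51, 1.77, 1.77, 1.35 and 0.868 FPKM in KDM6ATubKO UUO kidneys, against 2.96, 2.42, 2.48, 1.68 and 2.65 FPKM in KDM6ATubKO sham kidneys. In KDM6ACtrl mice it had 1.46, 0.653, 1.55, 1.91 and 1.94 FPKM after UUO, against 0.834, 2.46, 1.31, 2.33 and 2.79 FPKM after sham surgery. UUO kidneys overlapped sham kidneys in each genotype. The log2 fold change was -0.49 ± 0.19 (adjusted p = 0.028) in KDM6ATubKO and -0.21 ± 0.19 (adjusted p = 0.33) in KDM6ACtrl mice. The call in KDM6ATubKO mice was lost without sham mouse 1, sham mouse 5 or UUO mouse 5. It was also lost with the identifier series or the urothelium markers as a covariate (adjusted p up to 0.35 over the alternatives).

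The transcript table, estimated from the same libraries, held 61 transcripts of these genes, and 21 were higher and 2 lower after UUO in KDM6ATubKO mice (28.1% and 11.7% of all 26228 transcripts), against 24 higher and 4 lower in KDM6ACtrl mice (26.5% and 9.83% of all). For Wnt5b the table held a pair of transcripts that begin at different start sites, and these moved in opposite directions. Wnt5b-204, which starts upstream at position 119544347 of chromosome 6 (GRCm38, minus strand), was listed at 1.69, 0.000292, 1.98, 1.51 and 0.972 FPKM in KDM6ATubKO UUO kidneys, against 0.000427 FPKM or less in KDM6ATubKO sham kidneys. In KDM6ACtrl mice it was listed at 1.63, 0, 1.74, 0 and 2.17 FPKM after UUO, against 0.00011 FPKM or less after sham surgery. Wnt5b-202, which starts at position 119467211, was listed at 0, 2.23, 0, 0 and 0 FPKM in KDM6ATubKO UUO kidneys, against 3.72, 3.04, 3.01, 2.07 and 3.32 FPKM in KDM6ATubKO sham kidneys. In KDM6ACtrl mice it was listed at 0, 0.802, 0, 2.39 and 0 FPKM after UUO, against 1.05, 3.09, 1.64, 2.92 and 3.50 FPKM after sham surgery. Each sham kidney was thus assigned Wnt5b-202, and each UUO kidney was assigned either the one or the other transcript, with the remaining one at 0.000292 FPKM or less. Wnt5b-204 was higher by 1.06 ± 0.32 on the log2 scale in KDM6ATubKO (adjusted p = 0.012) and by 0.90 ± 0.32 in KDM6ACtrl mice (adjusted p = 0.033), and Wnt5b-202 was lower, at -1.66 ± 0.37 (adjusted p = 0.0013) and -1.20 ± 0.37 (adjusted p = 0.016). The KDM6ACtrl call of Wnt5b-204 was lost, at adjusted p of 0.053 to 0.099, without any 1 of the 5 sham kidneys or without UUO mouse 1, 3 or 5. A transcript value of 0 in such a table can be a failed assignment of shared reads, and the gene as a whole changed by much less than either transcript.

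**Figure D3:**
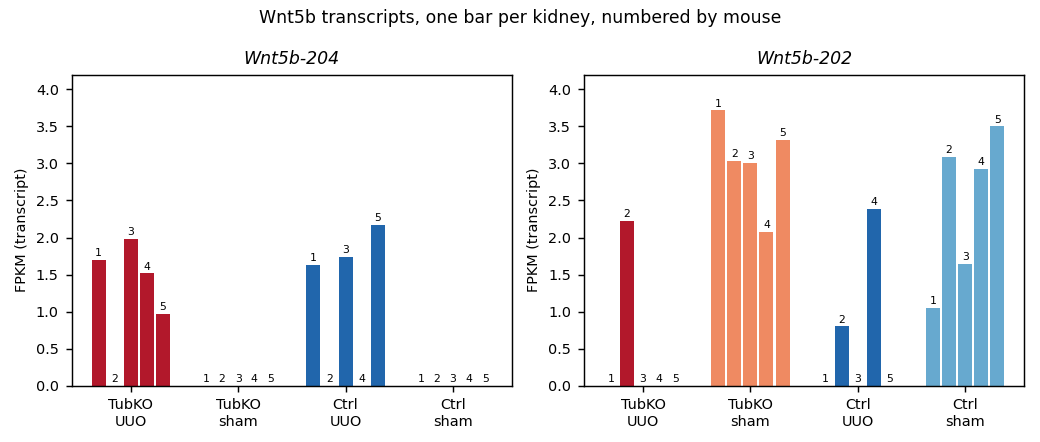
FPKM of Wnt5b-204 (left panel) and Wnt5b-202 (right panel), a bar per kidney, with the number of the mouse above it and groups along the x axis. Wnt5b-204 lies above 0.9 FPKM in 7 of 10 UUO kidneys and near 0 in every sham kidney, and Wnt5b-202 appears in all sham kidneys and in the other 3 UUO kidneys.

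The letters before these start sites are shown because they are where the listed transcripts of Wnt5b differ, and those of Wnt4 and Dkk2 because both genes were higher in every UUO kidney. Each line gives the 250 bases before the start, 5′ to 3′ on the strand of the gene, from RefSeq on GRCm38.p6, with each CG pair in capitals, the dinucleotide whose density sets CpG-rich promoters apart. The windows are chr6:119544348-119544597 for Wnt5b-204 and chr6:119467212-119467461 for Wnt5b-202 on the minus strand, and chr4:137277385-137277634 for Wnt4 and chr3:132085042-132085291 for Dkk2 on the plus strand. The RefSeq start of Wnt4 lies downstream of position 137277489, where the gene as located above begins, so part of its window lies inside that gene.
Wnt5b-204: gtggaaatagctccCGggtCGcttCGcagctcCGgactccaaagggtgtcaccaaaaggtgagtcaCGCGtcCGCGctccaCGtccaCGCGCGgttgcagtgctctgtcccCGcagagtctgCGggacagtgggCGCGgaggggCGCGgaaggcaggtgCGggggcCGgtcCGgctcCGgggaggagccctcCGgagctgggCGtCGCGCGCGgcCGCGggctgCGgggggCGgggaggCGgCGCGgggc
Wnt5b-202: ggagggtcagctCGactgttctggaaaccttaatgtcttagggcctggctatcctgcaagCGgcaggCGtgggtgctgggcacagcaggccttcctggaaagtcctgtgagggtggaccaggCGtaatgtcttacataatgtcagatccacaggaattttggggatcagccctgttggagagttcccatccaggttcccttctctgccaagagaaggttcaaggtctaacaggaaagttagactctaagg
Wnt4: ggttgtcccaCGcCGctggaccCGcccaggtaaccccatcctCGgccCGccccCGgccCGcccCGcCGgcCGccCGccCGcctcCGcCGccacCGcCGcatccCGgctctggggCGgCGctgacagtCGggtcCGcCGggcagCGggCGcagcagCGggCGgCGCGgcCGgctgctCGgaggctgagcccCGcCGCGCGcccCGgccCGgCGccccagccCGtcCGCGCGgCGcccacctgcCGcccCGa
Dkk2: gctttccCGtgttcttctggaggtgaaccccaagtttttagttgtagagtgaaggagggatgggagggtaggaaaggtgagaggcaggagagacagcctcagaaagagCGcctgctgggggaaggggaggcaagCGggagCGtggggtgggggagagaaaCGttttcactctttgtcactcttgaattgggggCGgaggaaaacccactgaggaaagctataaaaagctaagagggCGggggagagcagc
The window of Wnt5b-204 holds 35 CG pairs and that of Wnt5b-202 holds 4. The window of Wnt4 holds 44 and that of Dkk2 holds 7, so the 2 genes, both higher after UUO, differ widely in this respect. Over the 31 windows found for 24 of the 40 members the median was 17 CG pairs (2 to 48), against 6 over all 32851 windows in the table, 92.1% of which hold at least 1. The TCF/LEF core CTTTGAT, searched on both strands, was found in 2 member windows, one of Wnt11 and one of a Wnt5b start (Wnt5b-201) whose transcript was not analysed here, and in 3.21% of all windows. CTTTGAA was found in none of the member windows and in 4.46% of all. Neither was in the windows of Axin2, Nkd1 or Tcf7. Only these spellings and the 250 bases before a start were searched, so sites spelled otherwise or lying elsewhere would be missed. No window was found for Axin1, Dkk3, Fzd2, Fzd3, Fzd6, Fzd8, Lrp5, Lrp6, Notum, Porcn, Sfrp1, Sfrp4, Wnt10a, Wnt5a, Wnt7b and Znrf3.

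Frizzled receptors, the seven-pass receptors of Wnt ligands, were higher for Fzd2, Fzd3, Fzd6, Fzd7 and Fzd8 in both genotypes, 5 of 8 in each, and none was lower. That count lay near the 57.9% and 56.7% of all genes called higher, and Fzd3 is in the table through its UUO groups alone. Quantile normalization left 2 higher and 1 lower in KDM6ATubKO and 1 higher and 2 lower in KDM6ACtrl mice. Of all genes it left 31.7% higher and 34.9% lower in KDM6ATubKO and 28.8% higher and 35% lower in KDM6ACtrl mice. Of the Frizzled genes called, it turned Fzd6 in KDM6ACtrl mice to -0.013. Fzd2 had 2.82 to 3.20 FPKM in KDM6ATubKO UUO against 0.466 to 0.992 FPKM in KDM6ATubKO sham kidneys, and 2.24 to 3.62 FPKM in KDM6ACtrl UUO against 0.290 to 0.835 FPKM in KDM6ACtrl sham kidneys. Its log2 fold changes were 1.19 ± 0.11 (adjusted p = 1.5e-08) in KDM6ATubKO and 1.34 ± 0.11 (adjusted p = 4.0e-09) in KDM6ACtrl mice. The more abundant Fzd1 and Fzd4 did not pass, with Fzd4, an endothelial receptor for Norrin, at 16.6 ± 2.1 FPKM in KDM6ATubKO UUO against 15.0 ± 3.3 FPKM in sham kidneys, and at 15.6 ± 1.3 FPKM in KDM6ACtrl UUO against 16.3 ± 2.4 FPKM in sham kidneys. Fzd5 had log2 fold changes of -0.06 in KDM6ATubKO and 0.18 in KDM6ACtrl mice and also did not pass.

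Secreted Frizzled-related proteins bind Wnt ligands outside the cell. Sfrp4 and Sfrp5 were higher in both genotypes and Sfrp2 in KDM6ACtrl mice, but Sfrp4 (-0.043) and Sfrp5 (-0.059) turned in KDM6ATubKO mice under quantile normalization. Both Sfrp4 and Sfrp5 are in the table through their UUO groups alone. Sfrp2 ranged over 0.532 to 2.08 FPKM in KDM6ATubKO UUO against 0.463 to 0.826 FPKM in sham kidneys, and over 0.647 to 4.92 FPKM in KDM6ACtrl UUO against 0.167 to 0.470 FPKM in sham kidneys. Its log2 fold changes were 0.43 ± 0.25 (adjusted p = 0.13) in KDM6ATubKO and 1.12 ± 0.25 (adjusted p = 0.00057) in KDM6ACtrl mice, and the difference of -0.69 did not pass (adjusted p = 0.35). The KDM6ACtrl call of Sfrp2 was kept in 28 of 29 alternatives and lost with the urothelium covariate (adjusted p = 0.76 by limma). Sfrp4 lost its calls in both genotypes with that covariate. The part of urothelium in these differences was not tested beyond that fit. Sfrp1, by far the most abundant of the family, averaged 27.4 ± 2.3 FPKM in KDM6ATubKO UUO against 24.1 ± 6.3 FPKM in sham kidneys, and 22.7 ± 3.9 FPKM in KDM6ACtrl UUO against 21.6 ± 6.2 FPKM in sham kidneys, and passed in neither.

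Both Dickkopf genes were higher in every UUO kidney than in any sham kidney of the same genotype, and were called higher under each of the 3 scalings. Dkk3, a secreted protein that, unlike Dkk1 and Dkk2, does not bind Lrp6 in the usual way, had 15.8, 23.0, 20.1, 23.0 and 32.7 FPKM in KDM6ATubKO UUO kidneys, against 3.80, 4.22, 3.98, 3.59 and 3.39 FPKM in KDM6ATubKO sham kidneys. KDM6ACtrl mice had 11.4, 20.04, 11.2, 19.97 and 28.0 FPKM after UUO, against 4.22, 2.46, 3.27, 2.99 and 1.55 FPKM after sham surgery. The log2 fold changes were 2.28 ± 0.23 (adjusted p = 3.3e-08) in KDM6ATubKO and 2.25 ± 0.23 (adjusted p = 5.0e-08) in KDM6ACtrl mice. Dkk2, an Lrp5/6 ligand that can inhibit or weakly activate the pathway, had 35.3, 25.8, 31.4, 31.4 and 27.2 FPKM in KDM6ATubKO UUO kidneys, against 9.01, 9.10, 9.41, 7.31 and 9.43 FPKM in KDM6ATubKO sham kidneys. Kidneys of KDM6ACtrl mice had 17.8, 17.0, 20.2, 26.9 and 26.5 FPKM after UUO, against 7.64, 8.07, 8.04, 7.73 and 6.10 FPKM after sham surgery. Its log2 fold changes were 1.66 ± 0.12 (adjusted p = 6.5e-10) in KDM6ATubKO and 1.40 ± 0.12 (adjusted p = 8.9e-09) in KDM6ACtrl mice.

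Of the co-receptors, the receptor tyrosine kinases Ror1 and Ror2 were higher in both genotypes (log2 fold change 0.42 and 0.84 in KDM6ATubKO and 0.45 and 0.71 in KDM6ACtrl mice), with Ror1 turning to -0.17 and -0.12 under quantile normalization. Lrp5 was higher in KDM6ATubKO mice by 0.24 ± 0.09 (adjusted p = 0.026), a difference that turned to -0.024 and -0.26 under the other scalings. The call was lost without sham mouse 1, sham mouse 5 or UUO mouse 1. It was also lost with the identifier series or the urothelium markers as a covariate (adjusted p up to 0.82 over the alternatives). Lgr4, a receptor for R-spondins, the secreted proteins that strengthen Wnt signals, had 17.9, 22.6, 23.9, 21.8 and 21.5 FPKM in KDM6ACtrl UUO kidneys, against 40.3, 30.2, 34.3, 23.3 and 28.9 FPKM in KDM6ACtrl sham kidneys. In KDM6ATubKO mice it had 19.4, 22.6, 20.5, 17.6 and 18.8 FPKM after UUO, against 22.2, 20.6, 22.0, 19.0 and 19.8 FPKM after sham surgery. It was lower after UUO in KDM6ACtrl mice (-0.51 ± 0.11, adjusted p = 0.00044) with 1 sham kidney (mouse 4) inside the range of the UUO kidneys, and in KDM6ATubKO mice the difference was -0.07 ± 0.11 (adjusted p = 0.59). Lrp6, the main co-receptor of beta-catenin signalling, had 11.1, 12.4, 13.1, 12.3 and 12.1 FPKM in KDM6ACtrl UUO kidneys, against 15.4, 15.8, 13.8, 12.4 and 15.2 FPKM in KDM6ACtrl sham kidneys. It had 10.4, 12.1, 11.6, 11.6 and 11.2 FPKM in KDM6ATubKO UUO, against 9.46, 11.3, 13.4, 13.5 and 10.5 FPKM in KDM6ATubKO sham kidneys. It was lower in KDM6ACtrl mice by -0.23 ± 0.09 (adjusted p = 0.022), and it stood at -0.02 ± 0.09 in KDM6ATubKO mice. The KDM6ACtrl call was lost without sham mouse 2 or UUO mouse 1 and with the urothelium covariate (adjusted p up to 0.15 over the alternatives).

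Porcn and Wls, through which Wnt ligands leave the cell, passed in neither genotype. Wls averaged 14.8 ± 1.1 FPKM in KDM6ATubKO UUO against 15.1 ± 1.7 FPKM in sham kidneys, and 16.7 ± 1.1 FPKM in KDM6ACtrl UUO against 17.6 ± 1.3 FPKM in sham kidneys, and it was called lower in both genotypes under the other scalings. Its main listed transcript, Wls-201, was called higher after UUO in both (0.23 ± 0.09 in KDM6ATubKO and 0.34 ± 0.09 in KDM6ACtrl mice), so the gene and transcript tables differed in direction.

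The feedback regulators split. Nkd1, a Dishevelled-binding inhibitor and a target of beta-catenin, had 5.12, 3.69, 4.66, 3.50 and 5.64 FPKM in KDM6ATubKO UUO kidneys, against 0.358, 0.616, 0.411, 0.680 and 0.739 FPKM in KDM6ATubKO sham kidneys. In KDM6ACtrl mice it had 3.44, 1.42, 2.77, 3.60 and 4.80 FPKM after UUO, against 0.728, 0.713, 0.340, 0.400 and 0.416 FPKM after sham surgery. Every UUO kidney exceeded every sham kidney, with log2 fold changes of 1.81 ± 0.17 (adjusted p = 2.1e-08) in KDM6ATubKO and 1.42 ± 0.17 (adjusted p = 6.6e-07) in KDM6ACtrl mice. Axin2, the best known transcriptional readout of beta-catenin, averaged 1.13 ± 0.20 FPKM in KDM6ATubKO UUO against 0.234 ± 0.075 FPKM in sham kidneys, and 1.22 ± 0.47 FPKM in KDM6ACtrl UUO against 0.260 ± 0.19 FPKM in sham kidneys (log2 fold change 0.78 and 0.80), and it too is in the table through its UUO groups alone. Rnf43 and Znrf3, ubiquitin ligases that remove Frizzled receptors, and Axin1, the scaffold of the destruction complex, did not pass, with log2 fold changes of 0.05 to 0.14, and all 3 were called lower after UUO in both genotypes under quantile normalization.

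Notum, a secreted deacylase that inactivates Wnt ligands, went the opposite way to Nkd1 and Axin2. It had 1.58, 5.38, 1.84, 1.82 and 3.04 FPKM in KDM6ATubKO UUO kidneys, against 6.62, 8.96, 9.04, 7.89 and 7.59 FPKM in KDM6ATubKO sham kidneys. KDM6ACtrl mice had 2.51, 2.41, 2.96, 3.41 and 3.59 FPKM after UUO, against 10.4, 6.90, 10.2, 8.54 and 8.58 FPKM after sham surgery. Every UUO kidney lay below every sham kidney, and mouse 2 of KDM6ATubKO UUO, which also had the highest proximal tubule marker sum of that group (1423 FPKM), lay closest to them. The log2 fold changes were -1.35 ± 0.19 (adjusted p = 2.8e-06) in KDM6ATubKO and -1.32 ± 0.19 (adjusted p = 4.8e-06) in KDM6ACtrl mice, and the fall held under each scaling. Within KDM6ACtrl UUO, by contrast, the kidney with the most Notum (mouse 5) had the lowest proximal tubule sum of its group (749 FPKM). The part of proximal tubule content in the fall of Notum was not tested.

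Tcf7, a TCF/LEF factor that is abundant in T cells, had 1.81, 2.96, 3.80, 3.46 and 3.13 FPKM in KDM6ATubKO UUO kidneys, against 0.280, 0.344, 0.236, 0.460 and 0.397 FPKM in KDM6ATubKO sham kidneys. Kidneys of KDM6ACtrl mice had 2.50, 2.19, 2.29, 3.57 and 4.15 FPKM after UUO, against 0.741, 0.723, 0.612, 0.472 and 0.306 FPKM after sham surgery. The groups did not overlap, and the log2 fold changes were 1.56 ± 0.14 (adjusted p = 1.2e-08) in KDM6ATubKO and 1.31 ± 0.14 (adjusted p = 1.7e-07) in KDM6ACtrl mice. The 10 T cell markers in the table moved with it, and summed to 12.9 to 23.0 FPKM in KDM6ATubKO UUO against 1.38 to 2.71 FPKM in KDM6ATubKO sham, and to 7.27 to 24.7 FPKM in KDM6ACtrl UUO against 1.25 to 2.13 FPKM in KDM6ACtrl sham kidneys, with none at 0 throughout a group. Within KDM6ATubKO UUO the kidney with the highest T cell sum (mouse 1, 23.0 FPKM) had the least Tcf7, whereas within KDM6ACtrl UUO the highest sum and the most Tcf7 were in the same kidney (mouse 5). The part of T cells in the difference was not tested. Lef1, not analysed at the level of genes, had 1 transcript in the transcript table. This transcript, Lef1-201, was at 0.87, 0.50, 0.69, 0.62 and 0.60 FPKM in KDM6ATubKO UUO against 0.10, 0.21, 0.26, 0.29 and 0.25 FPKM in KDM6ATubKO sham kidneys (0.44 ± 0.11, adjusted p = 0.0026). That call was lost under quantile normalization (adjusted p = 0.064 by limma). In KDM6ACtrl mice Lef1-201 differed by 0.27 ± 0.11 (adjusted p = 0.056). Tcf7l2 passed in neither genotype (0.04 and 0.08).

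**Figure D4:**
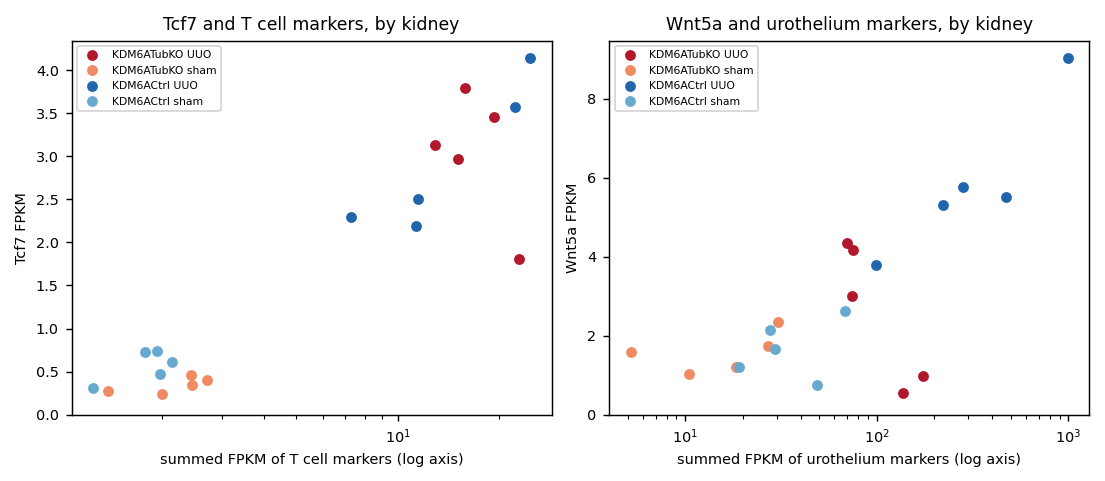
Left, Tcf7 FPKM against the summed FPKM of T cell markers, and right, Wnt5a FPKM against the summed FPKM of urothelium markers, a point per kidney, with the x axes on a log scale. The UUO kidneys lie apart from the sham kidneys on both axes of the left panel, and the 2 KDM6ATubKO UUO kidneys with Wnt5a under 1 FPKM lie at urothelium sums of 137 and 174 FPKM.

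Ctnnb1 was higher after UUO in KDM6ACtrl mice, with 88.0, 94.0, 80.8, 84.6 and 81.9 FPKM after UUO against 24.9, 50.4, 51.6, 49.8 and 43.4 FPKM after sham surgery (0.99 ± 0.28, adjusted p = 0.0041). In KDM6ATubKO mice it had 81.4, 22.8, 91.8, 78.7 and 83.8 FPKM after UUO, against 46.3, 46.5, 51.4, 50.7 and 33.9 FPKM after sham surgery, and did not pass (0.51 ± 0.28, adjusted p = 0.11). Without mouse 2 of KDM6ATubKO UUO the log2 fold change was 0.87 and passed, and it also passed with array weights (0.61) and with the urothelium covariate (0.81). This kidney and mouse 1 of KDM6ACtrl sham, the lowest of the series for Ctnnb1, were also the only ones in which transcript Ctnnb1-214 was listed above 0.5 FPKM (6.16 and 6.42 FPKM). How reads were assigned among the transcripts of Ctnnb1 was not tested as a source of the low values. Ctnnb1-205, a less abundant transcript, was higher after UUO in both genotypes (0.76 ± 0.21, adjusted p = 0.0059, and 1.07 ± 0.21, adjusted p = 0.00037).

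Genes of the pathway outside the member list were taken from lists of known function, and their counts stand beside the same background of 57.9% higher and 16.7% lower in KDM6ATubKO and 56.7% higher and 15.1% lower in KDM6ACtrl mice. Of 23 reported Wnt/beta-catenin target genes measured (24 listed), 17 were higher and 2 lower in KDM6ATubKO and 20 higher and 2 lower in KDM6ACtrl mice, with medians of 1.41 and 1.45 against 0.39 and 0.35 over all genes. Mmp7, a secreted metalloproteinase, averaged 48.5 FPKM in KDM6ATubKO UUO against 0.0644 FPKM in sham kidneys, and 32.1 FPKM in KDM6ACtrl UUO against 0.320 FPKM in sham kidneys. Sox9 led after it in KDM6ATubKO (4.32 ± 0.23) and Cd44 in KDM6ACtrl mice (4.24 ± 0.37), and all 3 genes also respond to signals other than Wnt. Of 15 measured genes of the destruction complex and Dishevelled, 13 were higher and none lower in KDM6ATubKO and 12 higher and 1 lower in KDM6ACtrl mice. They were led in both by the casein kinase gene Csnk1e (1.85 ± 0.11 and 1.76 ± 0.11), followed by Siah1a in KDM6ATubKO (1.04 ± 0.12) and Csnk1d in KDM6ACtrl mice (0.88 ± 0.07). Of 18 measured of 27 listed secreted and membrane modulators, 11 were higher and 3 lower in KDM6ATubKO and 12 higher and 2 lower in KDM6ACtrl mice. They were led by the glypican Gpc3 (2.997 ± 0.20 and 3.19 ± 0.20) and the Nkd1 paralog Nkd2 (2.85 ± 0.21 and 2.34 ± 0.21). Of 27 planar cell polarity and noncanonical genes, 18 were higher and 1 lower in KDM6ATubKO and 19 higher and 2 lower in KDM6ACtrl mice. The leading genes were Dact3 (1.88 ± 0.18 and 1.70 ± 0.18) and Dact1 (1.20 ± 0.13 and 0.95 ± 0.13), which modulate Dishevelled. Of 20 nuclear cofactors, 13 were higher and 4 lower in KDM6ATubKO (led by Aes at -1.25 ± 0.15 and Tcf7l1 at 1.18 ± 0.16) and 12 higher and 1 lower in KDM6ACtrl mice (led by Pygo2 at 1.25 ± 0.43 and Crebbp at 0.76 ± 0.09). Mmp7, Nkd2 (0.109 and 0.140 FPKM) and Dact3 (0.469 and 0.396 FPKM) averaged under 0.5 FPKM in both sham groups. They are thus in the table through their UUO groups alone, which favoured a higher level after UUO. The counts and medians of these lists include such genes and are given without rescaling.

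The next comparison asked what loss of KDM6A from tubules changed among these genes, KDM6ATubKO against KDM6ACtrl. In sham kidneys 0 members were higher and 3 were lower (Lgr4, Axin1 and Lrp6), where limma called 1.94% of all genes higher and 3.89% lower. At an unadjusted p under 0.05 the counts were 0 higher and 6 lower, the other 3 being Lrp5, Wls and Znrf3, beside 8.39% higher and 13.1% lower of all genes. In UUO kidneys 1 member was higher (Dkk2) and 2 were lower (Axin1 and Wnt5a), where 2.58% of all genes were called higher and 3.07% lower, and the counts at an unadjusted p under 0.05 were 3 and 4, beside 12.3% of all genes in each direction. Among these 3 higher members, Wnt11 averaged 0.508 FPKM in KDM6ATubKO UUO and under 0.5 FPKM in every other group. It is thus in the table through KDM6ATubKO UUO alone, which favoured a higher level there. The median log2 fold change over the members was -0.03 in sham and -0.04 in UUO kidneys, against -0.02 and 0.00 over all genes. When each comparison was fitted on its own 10 kidneys, none of the 40 members was called in either direction, and of all genes 0.816% were called higher and 1.13% lower in sham kidneys and 0.00722% higher and 0% lower in UUO kidneys.

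**Figure D5:**
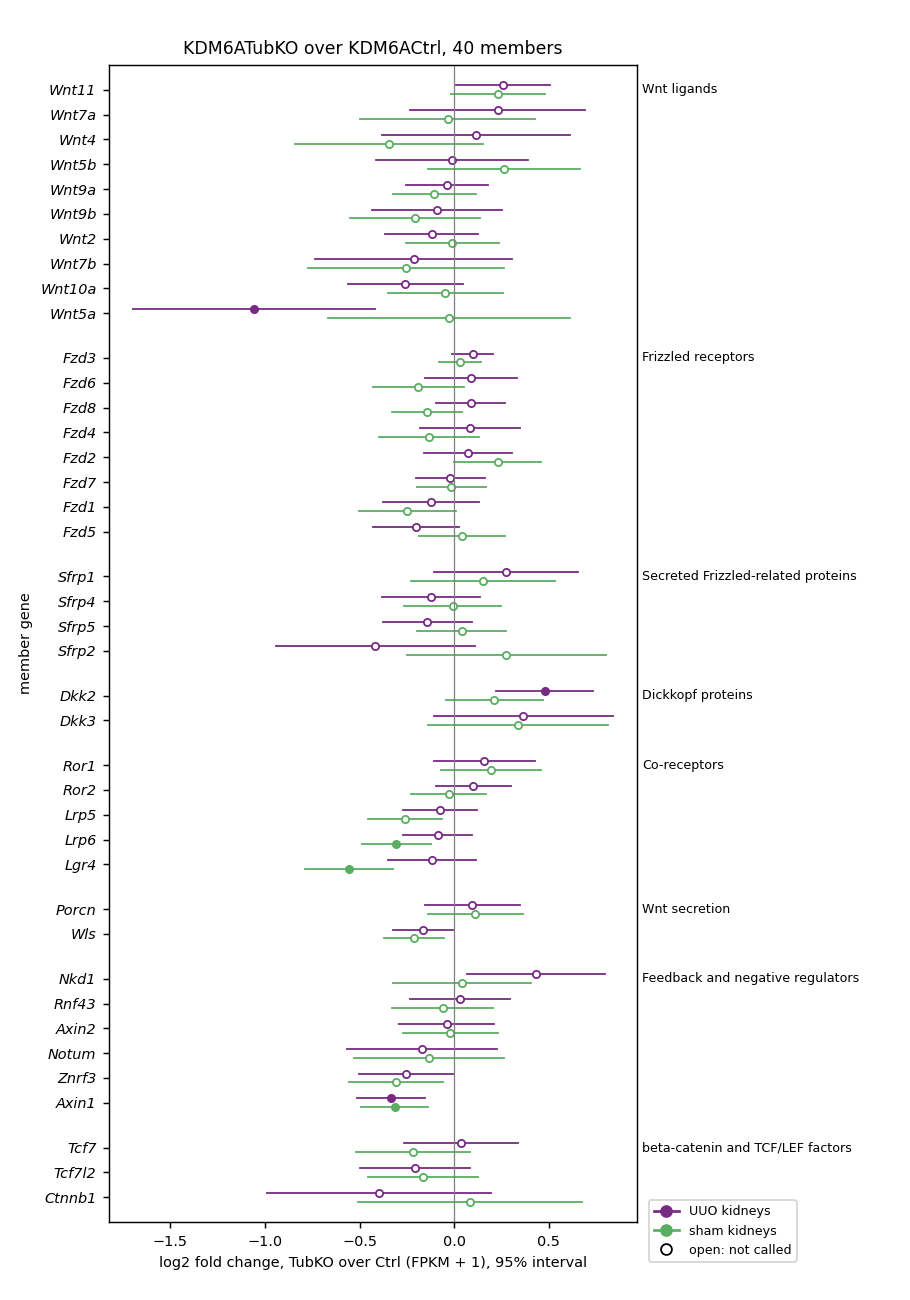
Log2 fold change of KDM6ATubKO over KDM6ACtrl on the FPKM + 1 scale for each of the 40 members, with 95% intervals, in UUO (purple) and sham kidneys (green). Filled points passed an adjusted p under 0.05. Axin1 is filled in both, Lgr4 and Lrp6 in sham kidneys, and Dkk2 and Wnt5a in UUO kidneys.

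Axin1 had 7.84, 8.57, 8.72, 8.34 and 7.08 FPKM in KDM6ATubKO sham kidneys, against 12.4, 9.25, 9.69, 9.61 and 10.9 FPKM in KDM6ACtrl sham kidneys. After UUO it had 7.79, 9.62, 8.95, 7.10 and 9.14 FPKM in KDM6ATubKO, against 11.3, 11.5, 10.6, 11.2 and 10.2 FPKM in KDM6ACtrl mice. Every KDM6ATubKO kidney lay below every KDM6ACtrl kidney of the same surgery, as for 7.69% of all genes (in either direction) in sham and 5.45% in UUO kidneys. The log2 fold change was -0.32 ± 0.09 (adjusted p = 0.038) in sham and -0.34 ± 0.09 (adjusted p = 0.031) in UUO kidneys. The sham call was kept in 18 of 29 alternatives (highest adjusted p 0.11) and the UUO call in 21 of 29 (highest adjusted p 0.30). The sham call was lost with the identifier series or the urothelium markers as a covariate, with quantile normalization and with the length trend removed. It was also lost without KDM6ACtrl sham mouse 1, 3 or 5 or KDM6ATubKO sham mouse 1, 2 or 5. The UUO call was lost with the urothelium covariate, with array weights, and without KDM6ACtrl UUO mouse 1, 2 or 3 or KDM6ATubKO UUO mouse 1 or 4.

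Lgr4 was lower in KDM6ATubKO than in KDM6ACtrl sham kidneys in every pairing of kidneys (19.0 to 22.2 FPKM against 23.3 to 40.3 FPKM), at -0.56 ± 0.11 (adjusted p = 0.011), a call kept in 28 of 29 alternatives. Its main transcript, Lgr4-201, was lower too (-0.53 ± 0.11, adjusted p = 0.033). The identifier series or the urothelium markers as a covariate ended that call, as did quantile normalization and removal of the length trend. Leaving out any 1 KDM6ATubKO sham mouse or KDM6ACtrl sham mouse 1, 2, 3 or 5 ended it too (adjusted p up to 0.12 over the alternatives). In UUO kidneys the Lgr4 difference was -0.12 ± 0.11 (adjusted p = 0.55), and the change of the genotype difference with UUO was 0.44 with a 95% interval of 0.11 to 0.77 (adjusted p = 0.20). Lrp6 ranged over 9.46 to 13.5 FPKM in KDM6ATubKO sham and over 12.4 to 15.8 FPKM in KDM6ACtrl sham kidneys, which overlapped. Its call (-0.31 ± 0.09, adjusted p = 0.045) was kept in 10 of 29 alternatives. It was lost with the identifier series or the urothelium markers as a covariate and under both other scalings. It was also lost without KDM6ACtrl sham mouse 1, 2, 3 or 5, KDM6ATubKO sham mouse 1, 2 or 5, KDM6ACtrl UUO mouse 2, 4 or 5 or KDM6ATubKO UUO mouse 3, 4 or 5 (adjusted p up to 0.27 over the alternatives). The slope of log2(FPKM + 1) on log2 transcript length also differed between these sham groups, at -0.51 to -0.42 in KDM6ATubKO and -0.42 to -0.35 in KDM6ACtrl kidneys, and with that trend removed Lgr4 alone of the 3 was still called. In the list of the destruction complex and Dishevelled 6 of 15 genes were lower in KDM6ATubKO sham kidneys, led by Apc (2.48 against 4.52 FPKM, -0.66 ± 0.16) and Dvl3 (3.16 against 4.18 FPKM, -0.32 ± 0.08), and none was higher, beside the 3.89% of all genes called lower. That count fell to 1 with the length trend removed, with quantile normalization, with the urothelium covariate or without KDM6ACtrl sham mouse 1. It fell to 2 with the identifier series as a covariate or without KDM6ATubKO sham mouse 3 or KDM6ACtrl sham mouse 3, to 3 without KDM6ACtrl sham mouse 2, and to 0 with only the sham kidneys or without KDM6ATubKO sham mouse 1 or 5. In UUO kidneys none of the 15 genes of this list was called in either direction. Their median log2 fold change was 0.0017 there, against -0.13 in sham kidneys.

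In UUO kidneys Dkk2 was higher in KDM6ATubKO mice (25.8 to 35.3 FPKM) than in KDM6ACtrl mice (17.0 to 26.9 FPKM), with 2 KDM6ACtrl kidneys inside the KDM6ATubKO range, at 0.48 ± 0.12 (adjusted p = 0.032). In sham kidneys the difference was 0.21 ± 0.12 (adjusted p = 0.35). The call in UUO kidneys was kept in 21 of 29 alternatives. It was lost with the urothelium covariate, with array weights, and without KDM6ACtrl UUO mouse 1, 2 or 3 or KDM6ATubKO UUO mouse 1 or 4 (adjusted p up to 0.25 over the alternatives). Wnt5a was lower in KDM6ATubKO (0.547 to 4.34 FPKM) than in KDM6ACtrl UUO kidneys (3.80 to 9.04 FPKM), at -1.06 ± 0.30 (adjusted p = 0.048), with an overlap of 2 KDM6ATubKO kidneys with KDM6ACtrl mouse 1. That call was kept in 8 of 29 alternatives, and leaving out KDM6ACtrl UUO mouse 2, 3, 4 or 5, KDM6ATubKO UUO mouse 1, 2 or 5, KDM6ACtrl sham mouse 2, 3 or 5 or any 1 KDM6ATubKO sham mouse ended it (adjusted p up to 0.24 over the alternatives). Among the other lists, single genes passed in UUO kidneys: Kremen1 (-0.37 ± 0.08), Nfatc3 (-0.26 ± 0.07) and Wisp2 (-0.42 ± 0.09) were lower and Tle2 (0.58 ± 0.13) was higher in KDM6ATubKO mice. Their lists hold 18, 27, 23 and 20 measured genes in that order, beside 2.58% higher and 3.07% lower of all genes. Wisp2 averaged 0.707 FPKM in KDM6ACtrl UUO and 0.267 FPKM in KDM6ATubKO UUO kidneys, and less in sham kidneys. It is thus in the table through the KDM6ACtrl UUO group alone. In the fit on the UUO kidneys alone 0 of all genes were called lower and 1 was called higher, so the calls of Kremen1, Nfatc3 and Wisp2 were lost. In sham kidneys Plcb1 (-0.39 ± 0.09) and Ep300 (-0.27 ± 0.07) were lower. They were the only genes called of 27 planar cell polarity and noncanonical genes and of 20 nuclear cofactors, beside 3.89% of all genes called lower. That share was 1.13% with only the sham kidneys and 1.02% with the length trend removed, and these calls were not followed there.

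Last, the design allowed a test of whether the change with UUO differed between genotypes. No member passed by limma in either direction. Of all genes, 0.0144% passed with a larger and 0.0144% with a smaller change in KDM6ATubKO mice. Without adjustment, 1 member in each direction fell under a limma p of 0.05, Lgr4 with a difference of 0.44 and Wnt5a with one of -1.03, beside 9.12% of all genes with a larger and 6.57% with a smaller change in KDM6ATubKO mice. The differences over the 40 members ranged from -1.03 to 0.46, and their adjusted p-values were 0.20 or more. For 5 of the members called in both genotypes, the 95% interval of the difference was -0.64 to 0.70 for Dkk3, -0.24 to 1.16 for Wnt4, -0.12 to 0.91 for Nkd1, -0.17 to 0.68 for Tcf7 and -0.60 to 0.53 for Notum, so differences of these sizes between the genotypes are not shut out.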

How the data were processed

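RNA was extracted with TRIzol from whole left kidneys and libraries were made with a KAPA stranded kit. Per the labels, reads were processed with cutadapt, HISAT2 and StringTie against GRCm38 (versions not given in the sources used here), and the authors deposited FPKM per gene and per transcript. No counts were used, so the depth of each library is unknown and no counting interval can be given. The deposited gene table holds genes whose mean reached 0.5 FPKM in at least 1 group. FPKM values were tested as log2(FPKM + 1) with limma 3.58.1 in R 4.3.3, with 1 mean per group, all 20 kidneys and a trended variance, and p-values were adjusted by Benjamini-Hochberg over all 13842 genes or 26228 transcripts, with calls at adjusted p under 0.05. Fold changes understate low genes on this scale, and are given ± SE. Each label names 1 mouse as a sample, and groups were taken from the labels.

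The results were recomputed with 0.1 as pseudocount, with genes under 1 FPKM left out, with only the compared groups, with upper quartile and quantile scaling, array weights, the identifier series or urothelium markers as covariates, removal of the trend with transcript length, and each kidney left out in turn. The members and lists were chosen with earlier results of these data known. Values are given per kidney for the 6 members called with the largest change in each direction and genotype, and for every member called between genotypes. Pathway lists name the 2 called genes of largest change. Ctnnb1, Sfrp2, Wls, Wnt7a, Fzd2 and the Wnt5b, Lef1 and Ctnnb1 transcripts were singled out after their values were seen. Of the marker lists tested, proximal tubule, fibroblast, T cell and urothelium sums are given. Promoter windows came from RefSeq (GRCm38.p6) and annotation from GENCODE M21.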

Additional observations from a re-analysis of the deposited data

Results flagged for a closer look

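In 12 of the 160 sets of 5 kidneys (a member in a group), 1 kidney stood apart from the other 4 by Dixon's criterion, which chance alone meets in about 1 set of 20. Ctnnb1 in mouse 2 of KDM6ATubKO UUO (22.8 FPKM, others 78.7 to 91.8 FPKM) and Wnt11 in mouse 5 of that group (1.07 FPKM, others 0.314 to 0.461 FPKM) stood apart after UUO, as did Rnf43 in mouse 5 of KDM6ACtrl UUO (0.251 FPKM, others 0.785 to 0.999 FPKM). In KDM6ATubKO sham kidneys these were Dkk2 in mouse 4 (7.31 FPKM), Rnf43 in mouse 1 (0.286 FPKM) and Sfrp4 in mouse 1 (0.223 FPKM). In KDM6ACtrl sham kidneys they were Axin2 (0.599 FPKM), Lrp5 (6.94 FPKM) and Sfrp5 (0.484 FPKM) in mouse 1, Wnt7a in mouse 3 (0.218 FPKM, others listed at 0), Ror1 in mouse 4 (1.77 FPKM) and Dkk2 in mouse 5 (6.1 FPKM).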

How the results depend on the processing

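Without 1 kidney at a time, the members called ranged over 20 to 23 higher and 1 to 2 lower for UUO in KDM6ATubKO mice, 23 to 24 higher and 2 to 3 lower in KDM6ACtrl mice, 1 to 4 lower for genotype in sham kidneys, and 0 to 2 higher and 0 to 2 lower for genotype in UUO kidneys. Transcripts ranged over 17 to 21 higher and 1 to 3 lower in KDM6ATubKO and 21 to 25 higher and 3 to 5 lower in KDM6ACtrl mice. Quantile normalization gave 11 higher and 13 lower in KDM6ATubKO and 12 higher and 14 lower in KDM6ACtrl mice, 1 lower for genotype in sham kidneys and 6 transcripts lower in KDM6ATubKO mice. It turned Wnt2 (-0.10), Sfrp4 (-0.043), Sfrp5 (-0.059), Lrp5 (-0.26) and Ror1 (-0.17) in KDM6ATubKO and Wnt9a (-0.037), Fzd6 (-0.013) and Ror1 (-0.12) in KDM6ACtrl mice. Upper quartile rescaling gave 7 lower in KDM6ATubKO and 6 lower in KDM6ACtrl mice, 1 lower for genotype in UUO kidneys and 7 transcripts lower in KDM6ATubKO mice, and turned Lrp5 (-0.024). With only the 2 compared groups, genotype gave 0 lower in sham and 0 higher and 0 lower in UUO kidneys, and 4 transcripts were lower in KDM6ATubKO mice. The urothelium covariate gave 18 higher and 2 lower for UUO in KDM6ACtrl mice, beside 43.5% higher and 10.2% lower of all genes. Wnt2, Wnt9a, Fzd6, Sfrp2, Sfrp4 and Lrp6 lost their KDM6ACtrl calls in that fit. It also gave 1 lower in KDM6ATubKO mice, 1 lower for genotype in sham, 0 higher and 0 lower in UUO kidneys, and 10 transcripts higher in KDM6ACtrl mice. The identifier series gave 1 lower in KDM6ATubKO mice and 1 lower for genotype in sham kidneys. Array weights gave 0 higher and 0 lower for genotype in UUO kidneys, removal of the length trend 1 lower in sham and 1 lower in UUO kidneys, and a pseudocount of 0.1 gave 1 lower in UUO kidneys. The cause of these changes was not tested. No paired analysis was possible because the labels carry no replicate numbers shared between groups. The depth of the libraries is unknown, so the precision of members under 1 FPKM rests on the spread between kidneys alone.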
